A study of Homo sapiens with 12 samples.

Results

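The SR and hnRNP splicing factor genes were followed across 4 treatment groups of OCI-AML3, an established human acute myeloid leukaemia cell line. Members were the rows of the count table whose symbol was SRSF plus a number or HNRNP plus letters and numbers, without pseudogene symbols, and whose mean raw count over all 12 libraries was at least 10. This left 32 genes of 54628 rows, 11 of them SR genes (SRSF1 to SRSF11) and 21 of them hnRNP genes. Of the 163 symbols of these forms, 125 were pseudogenes and 6 had a lower mean count. The level over all libraries chose the members and is given only as a description. HNRNPA1L2 was the member nearest to the threshold, with a mean count of 409.6. Just outside it lay SRSF12 (mean 0.75, at most 5 counts in a library) and HNRNPH2 (mean 0.417, at most 3 counts), and HNRNPCL1, HNRNPCL2, HNRNPCL3 and HNRNPCL4 had no count in any library, which allows at most 3 counts in each. All 32 members passed the filter on low counts.

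The cells were kept for 24 h with DMSO, the solvent control, with venetoclax (ABT199), an inhibitor of the survival protein BCL2, with an ERK inhibitor named compound 27 (ERKi), or with ABT199 and ERKi together (the combination). Each group had 3 libraries of poly(A) RNA. The doses are not given here, all libraries come from a single cell line, and nothing states that replicates were separate cultures, so p-values measure the spread between these libraries, which may be technical. The series is about how ERK inhibition overcomes resistance to venetoclax through mitochondrial fission, and splicing factors are not named in its design.

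SR proteins carry RNA recognition motifs and a tail rich in arginine and serine, bind exonic enhancers and recruit the spliceosome to nearby splice sites. They enter the nucleus and become active when kinases of the SRPK and CLK families phosphorylate that tail. The hnRNP proteins coat nascent transcripts, and many of them repress nearby splice sites, so the balance between both families shapes exon choice. Both families also act in export, stability and translation of mRNA. Many of their genes limit their own output by splicing in exons that send the transcript to nonsense-mediated decay. A gene-level count joins such transcripts with the coding ones. In GENCODE release 29, 6 of 8 transcripts of SRSF3 and 12 of 16 of SRSF11 are of a type other than protein-coding. These numbers take in every such type, not only targets of decay.

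The RefSeq table of promoter windows (GRCh38.p14, 250 bases before to 50 bases after a start) held 29 of the 32 members. Windows are shown for HNRNPR, which fell most with ERKi, for HNRNPA3 and SRSF3, which fell most among the HNRNPA1 relatives and the SR genes, and for SRSF5, an SR gene that rose, because these genes carry the opposite directions described below. Each line gives the 250 bases before the start, 5′ to 3′ on the gene's strand, and capitals mark an E-box (CACGTG), the core of an ETS site (CCGGAA or its reverse complement TTCCGG) or a TATAAA.
HNRNPR (chr1:23344285-23344534, minus strand): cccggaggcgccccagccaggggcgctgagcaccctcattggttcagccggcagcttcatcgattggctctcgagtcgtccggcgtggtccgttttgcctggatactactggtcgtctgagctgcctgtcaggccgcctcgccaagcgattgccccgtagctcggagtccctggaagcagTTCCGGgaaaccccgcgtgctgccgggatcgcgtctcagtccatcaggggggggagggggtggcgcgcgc
HNRNPA3 (chr2:177212544-177212793, plus strand): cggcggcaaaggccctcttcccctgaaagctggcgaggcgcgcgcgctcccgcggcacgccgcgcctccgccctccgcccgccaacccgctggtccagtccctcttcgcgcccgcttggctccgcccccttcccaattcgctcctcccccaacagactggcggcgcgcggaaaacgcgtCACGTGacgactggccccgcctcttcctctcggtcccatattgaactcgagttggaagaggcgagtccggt
SRSF3 (chr6:36594112-36594361, plus strand): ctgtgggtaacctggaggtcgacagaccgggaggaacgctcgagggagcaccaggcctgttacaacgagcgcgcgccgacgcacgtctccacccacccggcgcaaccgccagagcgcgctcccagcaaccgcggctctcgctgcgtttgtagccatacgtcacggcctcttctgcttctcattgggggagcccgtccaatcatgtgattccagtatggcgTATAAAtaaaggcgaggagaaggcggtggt
SRSF5 (chr14:69766892-69767141, plus strand): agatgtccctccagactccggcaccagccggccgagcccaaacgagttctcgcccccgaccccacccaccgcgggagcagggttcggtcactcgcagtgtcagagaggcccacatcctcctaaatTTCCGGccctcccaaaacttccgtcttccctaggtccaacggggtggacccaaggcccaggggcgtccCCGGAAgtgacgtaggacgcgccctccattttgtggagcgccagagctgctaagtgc

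HNRNPA3 held an E-box, the sequence bound by MYC and related factors, at position -71, and SRSF3 held a TATAAA at -30. HNRNPR held a single ETS core at -70, and SRSF5 held ETS cores at -125 and -57. Positions count from the start, on the first base of the match. Both strands of the whole 300-base windows were searched, and a gene with several windows counted once. The E-box letters were found in 6 of 29 members (HNRNPA3, HNRNPD, HNRNPDL, HNRNPH3, HNRNPM and HNRNPUL1), which is 20.7%, against 10.9% of 15843 protein-coding genes. CCGGAA occurred in 8 of 29 members, 27.6% against 26.6%. A GC box (GGGCGG) occurred in 20, 69% against 64.3%, CCAAT in 18, 62.1% against 42.1%, and TATAAA in 6, 20.7% against 12.4%. The cyclic AMP response element TGACGTCA was in no member window and in 3% of all genes. These are matches of letters and show neither binding nor its absence.

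Library totals ran from 19199296 to 21275065 counts. Levels are given as CPM, the count divided by the TMM-scaled library size and multiplied by 1000000, and as mean ± SD with n = 3. DMSO replicate 1 stood apart: relative to its degrees of freedom, the chi-square of its counts against the other DMSO libraries was 16.3 and 15.4, and that of other replicate pairs was 2.26 to 5.11, so counts of members are also given without it. Of 8 myeloid markers, all were at 1 CPM or more with DMSO, venetoclax and the combination and 7 with ERKi, and their summed level was 1480 to 1530 CPM with DMSO, 1400 to 1440 with venetoclax, 4770 to 4950 with ERKi and 6100 to 6340 with the combination. Most of that difference was LYZ, the gene of lysozyme. The 5 erythroid and 5 T cell markers summed to at most 0.279 and 0.108 CPM. Markers of fibroblasts summed to 6.04 to 33.9 CPM with DMSO, 12.3 to 23.6 with venetoclax, 9.33 to 24 with ERKi and 1.15 to 1.57 with the combination. The part of the myeloid and fibroblast genes in the results below was not tested. In bulk RNA, fewer cells of a type and less RNA per cell cannot be told apart.

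The 32 members held 1.91% to 1.95% of all counts with DMSO and 1.95% to 1.96% with venetoclax. Their share was 1.35% to 1.37% with ERKi and 1.42% to 1.47% with the combination. The summed SR level was 3753 ± 115 CPM with DMSO, 3787 ± 29.7 with venetoclax, 2803 ± 75.2 with ERKi and 2909 ± 28.4 with the combination. The summed hnRNP level was 15710 ± 174, 16157 ± 165, 10064 ± 32.9 and 12095 ± 253 CPM in the same order. The hnRNP sum of the combination thus lay between those of ERKi and DMSO, while the SR sums of ERKi and the combination lay close together. Per kilobase of the principal GENCODE transcript, HNRNPA1 had the highest level with DMSO (772.8 ± 38.7 CPM per kb), then HNRNPC (663 ± 14.3), HNRNPA2B1 (569.7 ± 15.3) and SRSF1 (482 ± 29.5), each above the next by more than their SDs. HNRNPA3 (436 ± 18.4), whose libraries overlapped those of SRSF1, and HNRNPK (432 ± 3.04) followed and did not differ beyond their spread. SRSF8 was lowest (12.3 ± 0.613), just under HNRNPA1L2 (14.6 ± 1.1). HNRNPA1L3 has no GENCODE length.

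With venetoclax alone, no SR or hnRNP gene passed the test. Log2 fold changes against DMSO ran from -0.11 (SRSF5) to 0.17 (HNRNPA1L2) with a median of 0.03, and all genes tested had a median of 0. edgeR's quasi-likelihood test, with Benjamini-Hochberg adjustment over 15173 genes, called 0 of 32 members, where 0.402% of all genes were called in either direction. At an unadjusted p under 0.05 there were 2 members, and DESeq2 and limma-voom called 0 as well. The hnRNP level was slightly above DMSO in many genes. In 9 members, all hnRNP genes, the 3 venetoclax libraries lay above the 3 DMSO libraries, against 6.87% of all genes tested, and in 1 member they lay below, against 6.33%. HNRNPA2B1, a reader of methylated RNA, stood at 1938, 2045 and 1993 CPM with DMSO and 2152, 2179 and 2097 CPM with venetoclax (log2 fold change 0.10 ± 0.035, adjusted p = 0.38). SRSF5 was the single member whose venetoclax libraries all lay below DMSO, at 242, 238 and 245 against 268, 259 and 254 CPM (log2 fold change -0.11 ± 0.038, adjusted p = 0.402). These differences did not pass the threshold.

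With ERKi alone, 26 of 32 members fell, 4 rose and 2 did not pass the test. Among all genes tested, 35.2% were called lower and 34.5% higher with ERKi, and the median log2 fold change was 0.01, against -0.57 over the members. Of the hnRNP genes 19 of 21 fell and none rose. Of the SR genes 7 of 11 fell and SRSF5, SRSF6, SRSF8 and SRSF11 rose. A fall of at least 2-fold was called in 5 members (HNRNPR, HNRNPAB, HNRNPA3, HNRNPDL and SRSF3), where 10.6% of all genes had one. Without DMSO replicate 1 the counts were 26 lower and 3 higher, since SRSF8 no longer passed. Scaling by library totals alone, in place of TMM factors, moved the median of all genes by 0.089. It moved the share of called genes that were higher from 49.5% to 55.5%, and the median over the members was -0.49. Under it HNRNPUL2 no longer passed and HNRNPLL was called higher, so directions of small changes here are relative to the TMM scaling.

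**Figure D1:**
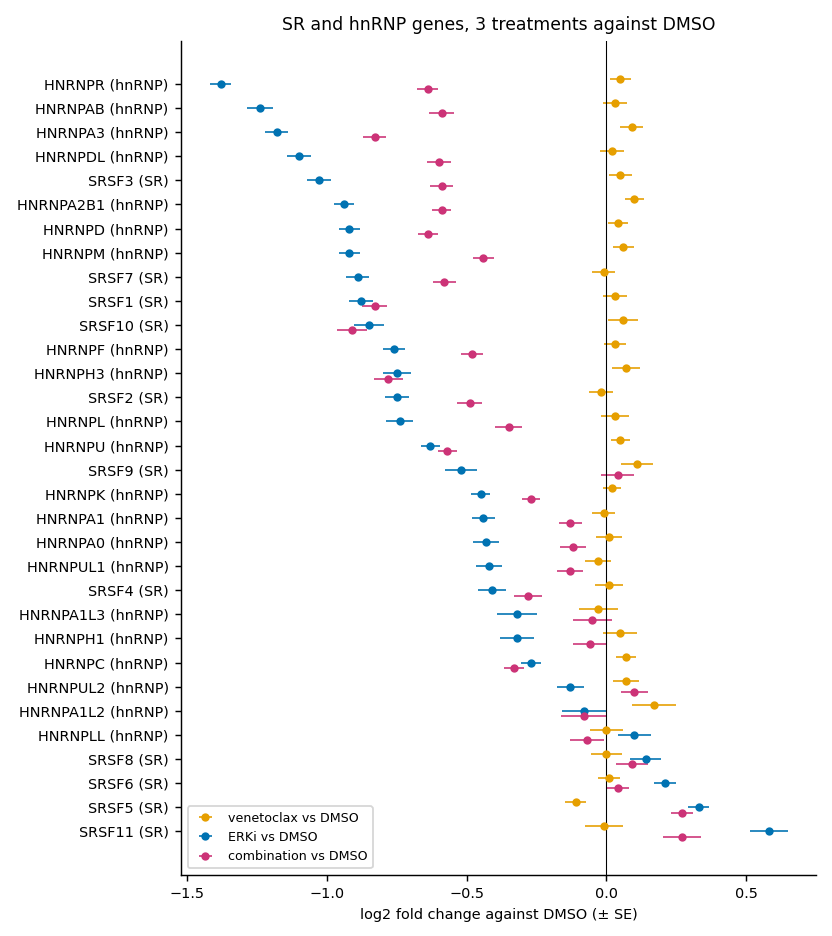
Log2 fold change against DMSO (x axis, bars ± SE) of the 32 SR and hnRNP genes (y axis, ordered by the ERKi value) for venetoclax, ERKi and the combination, 3 libraries per group. Venetoclax values lie between -0.11 and 0.17, ERKi values run from -1.38 (HNRNPR) to 0.58 (SRSF11), and most combination values lie between those of ERKi and 0, with SRSF10, HNRNPH3 and HNRNPC among the exceptions.

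Among the SR genes that fell, SRSF3 (chr6:36594362-36605600) encodes the smallest SR protein, which also acts as an adaptor for mRNA export. It stood at 665, 714 and 703 CPM with DMSO and 335, 341 and 345 CPM with ERKi (log2 fold change -1.03 ± 0.043, adjusted p = 1.72e-12). The ERKi libraries were at 49.1% of the DMSO mean and the groups did not overlap. SRSF7, the other export adaptor of the family, fell to 54.1% (log2 fold change -0.89 ± 0.041, adjusted p = 5.77e-12). SRSF1 (chr17:57989038-58007246), the founding SR protein and a known oncogene product, stood at 677, 758 and 749.8 CPM with DMSO and 397, 390.1 and 398 CPM with ERKi (log2 fold change -0.88 ± 0.043, adjusted p = 1.39e-11). Its exons share 56.6% of their bases with AC015813.2 on the same strand in GENCODE. The count table has no row of that symbol, so whether the overlap affected the counts of SRSF1 is not known. SRSF10, a repressor of splicing when it loses its phosphates, stood at 289, 326 and 336 CPM with DMSO and 182, 169.9 and 176 CPM with ERKi (log2 fold change -0.85 ± 0.054, adjusted p = 3.87e-10). SRSF2, the SR gene recurrently mutated in myeloid neoplasms, fell to 59.4% of DMSO (log2 fold change -0.75 ± 0.043, adjusted p = 1.15e-10). SRSF9 and SRSF4 fell less, to 69.8% and 75.4%, with log2 fold changes of -0.52 ± 0.058 and -0.41 ± 0.050. SRSF9 shares 46.2% of its exon bases with GATC, and SRSF2 shares 36.7% with MFSD11, both on the opposite strand, and the strand setting of the counting is not given in the sources used here.

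Among the SR genes that rose, SRSF11 (chr1:70205696-70253052), an SR-like protein that binds the spliceosome factor U2AF, stood at 283, 333 and 345 CPM with DMSO and 499, 439.6 and 498 CPM with ERKi, 149% of the DMSO mean (log2 fold change 0.58 ± 0.068, adjusted p = 9.32e-07). The lowest DMSO library was replicate 1, and the groups did not overlap. SRSF5 (chr14:69767142-69772005), whose product shuttles between nucleus and cytoplasm, rose from 268, 259 and 254 to 331, 323 and 330.1 CPM (log2 fold change 0.33 ± 0.038, adjusted p = 6.61e-07). SRSF6 rose from 343, 368 and 354 to 422, 396 and 412 CPM (log2 fold change 0.21 ± 0.039, adjusted p = 0.000169). SRSF8, a gene close in sequence to SRSF2, was at 46.7, 51.6 and 49.7 CPM with DMSO and 52.7, 54.6 and 55.6 CPM with ERKi (log2 fold change 0.14 ± 0.057, adjusted p = 0.0412). Its call was lost under 11 of 20 alternatives, 8 of them with a library left out (DMSO replicate 1 or 3, or any venetoclax or ERKi library), where its adjusted p was 0.0599 to 0.134.

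**Figure D2:**
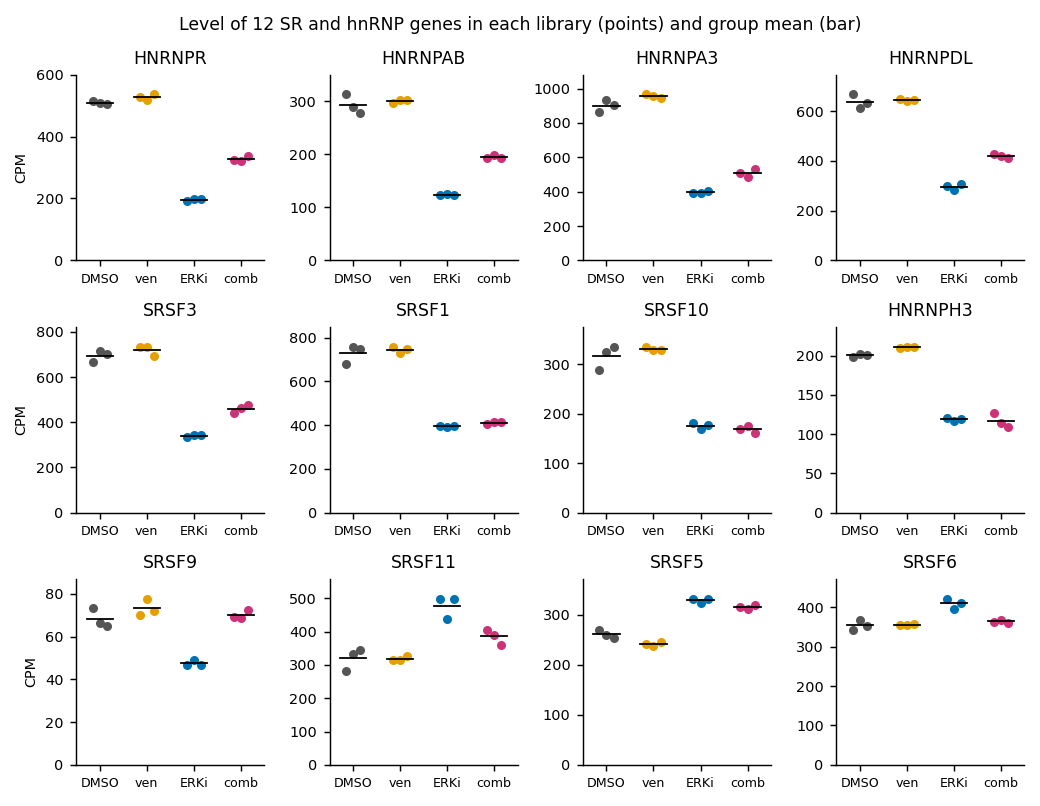
CPM (y axis, from 0) of 12 SR and hnRNP genes in each of the 3 libraries of DMSO, venetoclax (ven), ERKi and the combination (comb), as points with the group mean as a bar. In the upper row the ERKi libraries are lowest and the combination lies between ERKi and DMSO, in SRSF1, SRSF10 and HNRNPH3 the ERKi and combination points lie together, and in SRSF11, SRSF5 and SRSF6 the ERKi libraries are highest.

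In the branch of HNRNPA1 and its relatives, whose proteins often silence exons, HNRNPA3 (chr2:177212794-177223959) stood at 861, 936 and 907 CPM with DMSO and 394, 394 and 403 CPM with ERKi (log2 fold change -1.18 ± 0.042, adjusted p = 2.8e-13). The groups did not overlap, and the ERKi libraries were at 44.1% of the DMSO mean. HNRNPA2B1 fell from 1938, 2045 and 1993 to 1033, 1031 and 1060.1 CPM (log2 fold change -0.94 ± 0.035, adjusted p = 5.43e-13). HNRNPA1, the most abundant member, fell less, from 3369, 3084 and 3102 to 2317, 2399 and 2339 CPM (log2 fold change -0.44 ± 0.041, adjusted p = 5.99e-08), and HNRNPA0 to 74% of DMSO (-0.43 ± 0.046). HNRNPA1L3, a copy of HNRNPA1, had a log2 fold change of -0.32 ± 0.070 and also fell, whereas HNRNPA1L2, another copy, did not pass (log2 fold change -0.08 ± 0.080, adjusted p = 0.357). Reads shared by HNRNPA1 and its copies cannot be assigned with certainty, and the 74 pseudogene rows named after HNRNPA1 together held 2.3% to 3.65% of its counts.

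HNRNPAB, HNRNPD and HNRNPDL, related proteins that bind AU-rich RNA, fell together. HNRNPAB (chr5:178204533-178211163) stood at 313, 289 and 278 CPM with DMSO and 124, 126 and 123 CPM with ERKi (log2 fold change -1.24 ± 0.046, adjusted p = 4.13e-13). HNRNPDL (chr4:82422564-82430462) stood at 667, 611 and 631 CPM with DMSO and 300.2, 283 and 305 CPM with ERKi (log2 fold change -1.10 ± 0.043, adjusted p = 7.5e-13). HNRNPD, known as AUF1 and for its part in mRNA decay, fell to 52.7% of DMSO (log2 fold change -0.92 ± 0.037, adjusted p = 9.22e-13). The ERKi libraries of these 3 genes did not overlap DMSO, as in every member called lower, so this does not set them apart. The share of all genes without overlap is not given here, so no result about the members is read from it.

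HNRNPR (chr1:23304688-23344284), a relative of SYNCRIP with roles in transcription and RNA transport, had the largest fall of the 32 members. It stood at 514, 508 and 504 CPM with DMSO and 192, 198 and 197 CPM with ERKi, 38.6% of the DMSO mean (log2 fold change -1.38 ± 0.038, adjusted p = 1.52e-14). HNRNPM, a binder of GU-rich introns, fell to 52.8% (log2 fold change -0.92 ± 0.038, adjusted p = 1.45e-12). Of the binders of G runs, HNRNPF fell to 59%, HNRNPH3 to 59.3% and HNRNPH1 to 80%, with log2 fold changes of -0.76 ± 0.040, -0.75 ± 0.051 and -0.32 ± 0.061. HNRNPL, which binds CA repeats, fell to 59.8% (-0.74 ± 0.049), while its relative HNRNPLL did not pass the test. HNRNPLL stood at 60.7, 69.4 and 69.9 CPM with DMSO and 69.7, 74 and 70.9 CPM with ERKi (log2 fold change 0.10 ± 0.060, adjusted p = 0.144). With library totals HNRNPLL was called higher (0.19, adjusted p = 0.0117). HNRNPU, a scaffold protein of nuclear RNA and chromatin, fell to 64.7% (-0.63 ± 0.034), and its relatives HNRNPUL1 and HNRNPUL2 to 74.6% and 91.3%. The fall of HNRNPUL2 (log2 fold change -0.13 ± 0.048, adjusted p = 0.0234) did not pass without DMSO replicate 2 or 3 or ERKi replicate 3, where its adjusted p was 0.0586 to 0.0798, nor with library totals (-0.04, adjusted p = 0.453). It was also lost with a filter of CPM 1 in 3 libraries (0.0681) and in a fit of only the 2 groups compared (0.0697). HNRNPUL2 shares 44.1% of its exon bases with HNRNPUL2-BSCL2 on the same strand, whose row had a mean count of 0.0. HNRNPU shares 15.6% with COX20 on the opposite strand. HNRNPK, which binds C-rich sequence, fell to 73% (-0.45 ± 0.033), and HNRNPC, which binds U tracts and shields them from the splicing machinery, to 82.8% (-0.27 ± 0.036).

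With the combination against DMSO, 22 members fell, 2 rose and 8 did not pass, where 33.4% of all genes were called lower and 30.4% higher. The median over the members was -0.34 and that over all genes -0.01. SRSF10 fell most, to 168, 175 and 161 CPM (log2 fold change -0.91 ± 0.054, adjusted p = 2.86e-10), followed by SRSF1 at 403, 412 and 413 CPM (log2 fold change -0.83 ± 0.043, adjusted p = 5.88e-11) and HNRNPA3 at 506, 487 and 531 CPM (log2 fold change -0.83 ± 0.042, adjusted p = 4.02e-11). HNRNPH3 stood at 127, 114 and 108 CPM (log2 fold change -0.78 ± 0.051, adjusted p = 9.09e-10). HNRNPD and HNRNPR both had a log2 fold change of -0.64, with combination libraries at 472, 454 and 479 CPM for HNRNPD and 325, 319.6 and 337 CPM for HNRNPR. In these 6 genes no combination library reached the lowest DMSO library, as in all 22 members called lower. These genes were picked for their falls, so this is a description and no separate support. The share of all genes without overlap is not given here. No member fell by 2-fold or more, where 6.85% of all genes did. SRSF11 (405, 391 and 362 CPM, log2 fold change 0.27 ± 0.068, adjusted p = 0.00255) and SRSF5 (315, 310.4 and 318 CPM, log2 fold change 0.27 ± 0.038, adjusted p = 9.15e-06) rose. SRSF9, which had fallen with ERKi, stood at 69.3, 68.8 and 72.6 CPM against 73.2, 66.2 and 65 CPM with DMSO (log2 fold change 0.04 ± 0.058, adjusted p = 0.518), and these groups overlapped. HNRNPA0, HNRNPA1 and HNRNPUL1 had small falls (-0.12, -0.13 and -0.13) that did not pass without combination replicate 2, with adjusted p of 0.0688, 0.0735 and 0.0568, nor, for HNRNPA0, without combination replicate 1 (0.162). These calls were also lost without the filter on low counts (0.15, 0.105 and 0.0833) and in a fit of only the 2 groups compared (0.165, 0.0879 and 0.117). HNRNPA0 did not pass with RLE scaling factors (0.0716) or DESeq2 (0.0665) either. Without DMSO replicate 1, 23 members fell and 2 rose.

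ERKi added to venetoclax was measured as the combination against venetoclax alone. This comparison shares no library with ERKi against DMSO. Again 22 members fell, 2 rose and 8 did not pass, against 34.2% of all genes lower and 32.1% higher, with medians of -0.39 over the members and 0 over all genes. The largest falls were those of SRSF10, from 335, 329 and 329 to 168, 175 and 161 CPM (log2 fold change -0.98 ± 0.054, adjusted p = 1.06e-10), and HNRNPA3, from 966, 959 and 946 to 506, 487 and 531 CPM (log2 fold change -0.91 ± 0.042, adjusted p = 1.06e-11). HNRNPH3 (from 210.0, 211 and 211 CPM, -0.86 ± 0.051), SRSF1 (from 757, 730.5 and 746 CPM, -0.86 ± 0.043), HNRNPR (-0.69 ± 0.037) and HNRNPA2B1 (-0.69 ± 0.035) came next. SRSF5 rose from 242, 238 and 245 to 315, 310.4 and 318 CPM (log2 fold change 0.38 ± 0.038, adjusted p = 1.67e-07) and SRSF11 from 314, 315 and 326 to 405, 391 and 362 CPM (log2 fold change 0.28 ± 0.068, adjusted p = 0.00195). Across the 32 genes, which are not independent replicates, the ERKi effect with venetoclax followed that without it (Pearson r 0.87, Spearman rho 0.87). In 30 genes the sign was the same, and in 27 the effect was smaller with venetoclax present. These values were not computed over all genes tested, so they are not shown to be particular to the members. Of all genes tested, 1601 were called at least 2-fold lower with ERKi against DMSO and 1141 with the combination against venetoclax. The falls of HNRNPA0 and HNRNPA1 (-0.12 and -0.12) did not pass without venetoclax replicate 2 (adjusted p 0.0915 and 0.0602) or combination replicate 2 (0.0584 and 0.1), nor did that of HNRNPA0 without venetoclax replicate 1 (0.0558) or combination replicate 1 (0.144). Without DMSO replicate 1, 24 members fell and 2 rose.

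**Figure D3:**
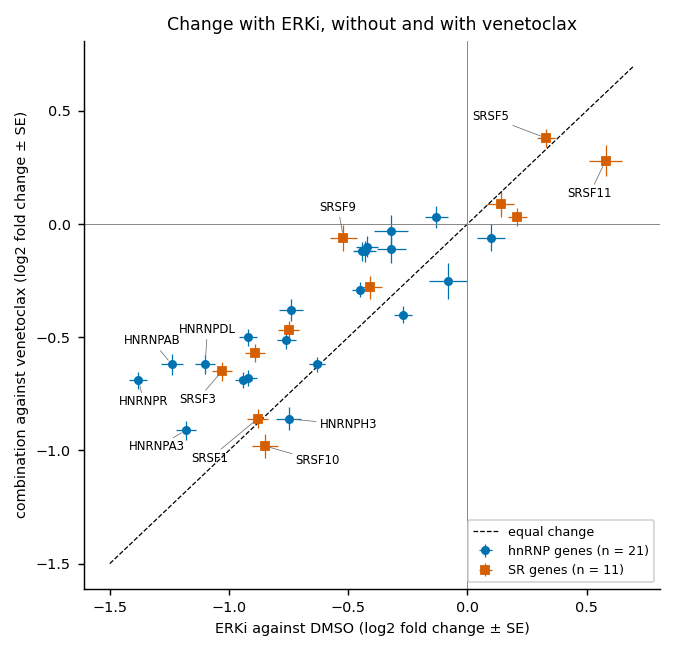
Log2 fold change ± SE of ERKi against DMSO (x axis) and of the combination against venetoclax (y axis) for 21 hnRNP genes (circles) and 11 SR genes (squares), with a dashed line of equal change. Most genes that fell lie above the line, HNRNPR, HNRNPAB and SRSF9 far from it, while SRSF1 lies near it and SRSF10 and HNRNPH3 lie just below it.

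Venetoclax added to ERKi was measured as the combination against ERKi alone. Here 21 members were higher, 3 lower and 8 did not pass, against 26.5% of all genes higher and 24.3% lower, with medians of 0.27 over the members and 0 over all genes. Of the hnRNP genes 16 of 21 were higher and HNRNPLL was lower. Of the SR genes 5 of 11 were higher (SRSF2, SRSF3, SRSF4, SRSF7 and SRSF9) and SRSF6 and SRSF11 were lower. Scaling by library totals alone moved the median of all genes by -0.123, and the share of called genes that were higher from 52.1% to 34.8%. Under it the median over the members was 0.14 and 8 members were lower, where 5181 of 15173 genes tested were lower and 2763 higher. Directions here are thus relative to the TMM scaling. SRSF4, HNRNPA1L3, HNRNPH1, HNRNPK and HNRNPUL2 no longer passed, and no called direction turned. Without DMSO replicate 1, 22 members were higher and 3 lower.

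The 5 largest rises were those of HNRNPR, HNRNPAB, SRSF9, HNRNPDL and HNRNPM. HNRNPR went from 192, 198 and 197 to 325, 319.6 and 337 CPM (log2 fold change 0.74 ± 0.038, adjusted p = 4.36e-10), HNRNPAB from 124, 126 and 123 to 193, 198 and 194 CPM (log2 fold change 0.65 ± 0.046, adjusted p = 1.22e-08) and SRSF9 from 46.7, 49.2 and 46.5 to 69.3, 68.8 and 72.6 CPM (log2 fold change 0.57 ± 0.059, adjusted p = 8.68e-07). HNRNPDL went from 300.2, 283 and 305 to 428, 418 and 410.0 CPM (log2 fold change 0.50 ± 0.043, adjusted p = 1.11e-07) and HNRNPM from 264, 269.8 and 261 to 366, 365 and 381 CPM (log2 fold change 0.49 ± 0.038, adjusted p = 3.68e-08). In all 5 the lowest combination library was above the highest ERKi library, as in every member called higher, so this does not set them apart. The share of all genes without overlap is not given here either. In all but SRSF9 the combination stayed below DMSO. SRSF11 went from 499, 439.6 and 498 to 405, 391 and 362 CPM (log2 fold change -0.31 ± 0.068, adjusted p = 0.00115) and SRSF6 from 422, 396 and 412 to 363, 368 and 362 CPM (log2 fold change -0.17 ± 0.039, adjusted p = 0.00182), both towards the DMSO level. HNRNPLL was lower by a log2 fold change of -0.17 ± 0.060, which did not pass without ERKi replicate 2 or 3 or combination replicate 1 or 3 (adjusted p 0.0548 to 0.107). Without the filter on low counts neither HNRNPLL (0.116) nor SRSF6 (0.0534) passed. SRSF4 (0.13 ± 0.051) lost its call under 12 of 20 alternatives, 9 of them with a library left out (any venetoclax, ERKi or combination library), with adjusted p of 0.0513 to 0.192.

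**Figure D4:**
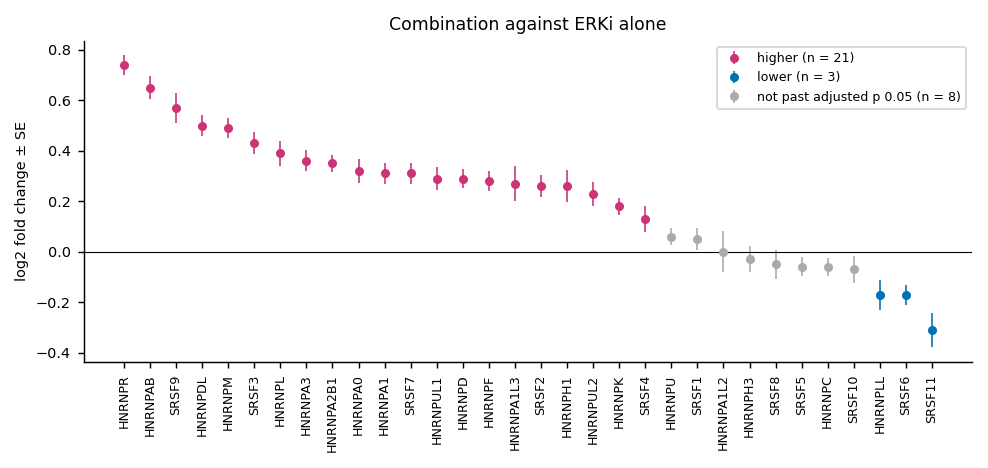
Log2 fold change ± SE of the combination against ERKi alone (y axis) for each of the 32 SR and hnRNP genes (x axis, in order of the value), coloured by the edgeR call. The 21 genes called higher reach 0.74 (HNRNPR), and SRSF11, at -0.31, is the lowest of 3 called lower.

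Of the 8 members not called in the combination against ERKi, 5 with a called fall under ERKi are given here. SRSF1 was at 395 ± 4.09 CPM with ERKi and 409.6 ± 5.84 CPM with the combination (log2 fold change 0.05 ± 0.043, adjusted p = 0.327). SRSF10 was at 176 ± 5.85 and 168 ± 7.2 CPM (log2 fold change -0.07 ± 0.054, adjusted p = 0.334), and HNRNPH3 at 119 ± 2.21 and 116 ± 9.33 CPM (log2 fold change -0.03 ± 0.051, adjusted p = 0.664). HNRNPU (0.06 ± 0.034) and HNRNPC (-0.06 ± 0.036) did not pass either. The combination libraries of SRSF1 and HNRNPU nevertheless lay above the ERKi libraries without overlap, and without DMSO replicate 1 HNRNPU was called higher (0.06, adjusted p = 0.0381). With library totals SRSF10 (-0.19), HNRNPH3 (-0.15) and HNRNPC (-0.18) were called lower. HNRNPR, SRSF1 and SRSF10 had each fallen with ERKi, yet at the level of the combination HNRNPR stood at 64.4% of DMSO, SRSF1 at 56.2% and SRSF10 at 53.1%.

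Whether the combination departed from the sum of both single effects was tested by the interaction, the combination minus ERKi minus venetoclax plus DMSO on the log2 scale. It was positive in 18 members, negative in 2 and not called in 12, against 21.3% of all genes positive and 18% negative, with medians of 0.24 and 0.01. In these 18 genes the combination was less low, or higher, than the sum of the single effects gives. HNRNPR had the largest value (log2 fold change 0.69 ± 0.053, adjusted p = 1.65e-07), then HNRNPAB (log2 fold change 0.61 ± 0.064, adjusted p = 2.73e-06), HNRNPDL (log2 fold change 0.48 ± 0.060, adjusted p = 1.7e-05), SRSF9 (log2 fold change 0.46 ± 0.082, adjusted p = 0.000388) and HNRNPM (log2 fold change 0.42 ± 0.053, adjusted p = 1.8e-05). SRSF11 (log2 fold change -0.30 ± 0.096, adjusted p = 0.0196) and SRSF6 (log2 fold change -0.18 ± 0.056, adjusted p = 0.0195) were negative. SRSF1 (log2 fold change 0.02 ± 0.061, adjusted p = 0.812), SRSF10 (log2 fold change -0.13 ± 0.076, adjusted p = 0.193), HNRNPH3 (log2 fold change -0.10 ± 0.072, adjusted p = 0.275) and HNRNPU (log2 fold change 0.01 ± 0.048, adjusted p = 0.922) did not pass. The negative value of SRSF11 did not pass without venetoclax replicate 3, ERKi replicate 1, ERKi replicate 3 or combination replicate 3 (adjusted p 0.0503 to 0.0579), nor did that of SRSF6 without ERKi replicate 1 (0.0664). Scaling by library totals alone moved the median of all genes by -0.107, the share of called genes that were positive from 54.2% to 38.3% and the median of the members to 0.14. Without DMSO replicate 1, 20 members were positive and 3 negative.

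Other genes of the splicing pathway were read from the same fit in lists chosen by function. Among the kinases, phosphatase and import receptor of SR proteins, 4 of 10 rose (CLK1, CLK3, CLK4 and DYRK1A) and 3 fell (SRPK1, TNPO3 and PPP1CA) with ERKi, close to the 34.5% and 35.2% of all genes tested. CLK1, a nuclear kinase of SR proteins, rose from 93 ± 4.06 to 197 ± 0.967 CPM (1.08 ± 0.047, adjusted p = 2.85e-12), and its relative CLK4 from 27.1 ± 2.19 to 53.9 ± 1.16 CPM (0.99 ± 0.063, adjusted p = 3.63e-10). SRPK1, the cytoplasmic kinase that primes SR proteins for import, fell from 197 ± 18.7 to 90.9 ± 2.56 CPM (-1.12 ± 0.060, adjusted p = 4.3e-11). With the combination CLK1 stood at 129 ± 5.49, CLK4 at 31.5 ± 0.435 and SRPK1 at 101 ± 3.89 CPM. Against ERKi alone CLK1 and CLK4 were lower (-0.61 ± 0.046 and -0.77 ± 0.062), and SRPK1 had a value of 0.16 ± 0.061 (adjusted p = 0.0426). With library totals in place of TMM factors no gene of this list, SRPK1 included, was called higher, against 3 with TMM.

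**Figure D5:**
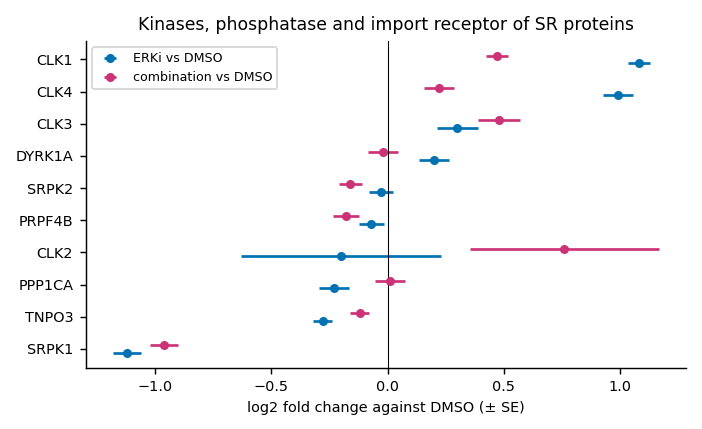
Log2 fold change against DMSO (x axis, bars ± SE) of the 10 genes for kinases, phosphatase and import receptor of SR proteins (y axis) with ERKi and with the combination. CLK1 and CLK4 lie highest with ERKi (1.08 and 0.99), SRPK1 lies lowest in both treatments, and the wide bars of CLK2 mark a value that did not pass the test.

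Of the SR-related proteins, 14 of 22 tested genes fell with ERKi and SRRM2, LUC7L2 and LUC7L3 rose, where 35.2% of all genes fell and 34.5% rose, the shares that the other counts here are to be read against. TRA2B, a splicing activator with an SR-like tail, fell by 1.24 on the log2 scale from 390.2 ± 20.1 to 166 ± 3.91 CPM, RNPS1, a part of the complex that marks exon junctions, by 0.85, and BCLAF1 by 0.76. Of the hnRNP proteins with other symbols, 6 of 10 fell and PCBP2 rose. PTBP1, the polypyrimidine tract binder, had 365 ± 31, 224 ± 2.33 and 332 ± 4.82 CPM with DMSO, ERKi and the combination, and SYNCRIP 788 ± 41, 472 ± 8.75 and 584 ± 12.3 CPM. The other splicing regulators were split, with 9 of 20 higher and 9 lower with ERKi, both not far from those shares. RBM47, an RNA-binding protein of epithelial and myeloid cells, rose from 12 ± 1.3 to 79.3 ± 1.03 CPM (2.73 ± 0.080), while ELAVL1 and KHSRP, binders of AU-rich RNA, fell by 0.99 and 0.95. Against ERKi alone, the combination was higher in 4 of 22 SR-related genes and lower in 4. It was higher in 6 and lower in 11 of 20 other splicing regulators. Of 10 hnRNP proteins with other symbols, 6 were higher and 1 lower. Among all genes tested, 26.5% were higher and 24.3% lower.

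In the spliceosome core, 20 of 23 Sm and snRNP genes fell with ERKi and PRPF31 rose, with a median of -0.84, where 35.2% of all genes fell and 34.5% rose. SNRPD1, a protein of the Sm ring, fell from 165 ± 8.6 to 55.3 ± 1.54 CPM (-1.57 ± 0.051) and was at 79.7 ± 0.433 CPM with the combination. SNRPF and SNRPB fell by 1.43 and 1.07. Of the factors that recognise the 3′ splice site, 11 of 17 fell and U2AF1L4 and SF3B1 rose. The RNA helicase DHX15 (417 ± 22.2 CPM with DMSO, 181 ± 1.9 with ERKi) and the U2 snRNP subunits SF3A3 (-1.10 ± 0.042) and SF3B3 (-1.09 ± 0.040) had the smallest adjusted p, all lower. Of the nonsense-mediated decay factors, 12 of 15 fell and UPF3A and SMG1 rose, with MAGOHB at 37.7 ± 0.731 CPM with DMSO and 13.6 ± 1.14 CPM with ERKi (-1.47 ± 0.078), and EIF4A3 and SMG9 lower by 0.90 and 0.83 on the log2 scale. Against ERKi alone, the combination was higher in 18 Sm and snRNP genes, 12 of the 3′ splice site factors and 6 of the decay factors, where 26.5% of all genes were higher. These counts ran from 15 to 18, 11 to 13 and 4 to 6 over the alternatives, and decay factors called lower from 0 to 4. Over all 20 alternatives the falls with ERKi counted 20 to 21, 10 to 13 and 10 to 12 genes in these 3 lists, while the rise of PRPF31 was lost when any of the DMSO libraries was left out, without ERKi replicate 2 or 3 or combination replicate 2, and by DESeq2 and limma-voom. With venetoclax alone edgeR called no gene of any of the 7 lists.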

How the data were processed

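Raw read counts per gene symbol were deposited by the authors as a single table of 54628 rows and 12 libraries, and 0 rows named no gene. The submitters' processing notes list HISAT2, HTSeq, DESeq2 and the build hg38, without versions; annotation and strand setting are not known here. Groups came from the treatment labels. The members and lists were chosen with earlier results of these data known.

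Testing used edgeR 4.0.16 under R 4.3.3. The filterByExpr filter, with 10 as its minimum count and 15 as its minimum total, kept 15173 genes. TMM factors, which take most genes as unchanged, scaled the libraries. The quasi-likelihood F test was run in 1 model of 4 groups with 8 residual degrees of freedom, with Benjamini-Hochberg adjustment over all genes tested and a threshold of 0.05. The prior count for fold changes was 0.125. Each SE was derived from the log2 fold change and F. The code was tested on simulated counts with changes in a small part of the genes, read in ERKi against DMSO only. That run does not test the scaling of these data or the interaction. The rule for named genes took the 5 largest rises and falls of called members per comparison and, for each list, the 3 called genes with the smallest adjusted p with ERKi. A gene that this rule names is not reported here. Other genes named with values were chosen after their values were seen, for their role, a lost call or a count of 5 or fewer.

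Alternatives were RLE factors, DESeq2 1.42.0, limma-voom (limma 3.58.1), no filter on low counts, at least CPM 1 in 3 libraries as the filter, a block for the replicate number, a fit of only the 2 groups compared, and each library left out. Scaling by library totals was added after seeing the data. Positions and promoters were matched by symbol to RefSeq GRCh38.p14, and lengths and overlaps to GENCODE release 29 (31 of 32 members). Figures were drawn with matplotlib 3.10.9.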

Additional observations from a re-analysis of the deposited data

Results flagged for a closer look

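The effect of venetoclax differed with and without ERKi in 20 of the 32 genes, by the edgeR interaction test over all 12 libraries, with 18 positive and 2 negative, where 21.3% of all genes tested were positive and 18% negative. The value is the log2 effect of venetoclax in cells with ERKi minus that in cells without it. It was 0.69 for HNRNPR, 0.61 for HNRNPAB, 0.48 for HNRNPDL, 0.46 for SRSF9 and 0.42 for HNRNPM. Then came SRSF3 with 0.38, HNRNPL with 0.37, HNRNPA1, HNRNPUL1 and SRSF7 with 0.32 each, HNRNPA0 with 0.31, HNRNPA1L3 with 0.29, SRSF2 with 0.28, HNRNPA3 with 0.27 and HNRNPF with 0.25. HNRNPA2B1 and HNRNPD had 0.24 each and HNRNPK 0.16. SRSF11 had -0.30 and SRSF6 -0.18. The values of HNRNPA1L3, HNRNPK, SRSF11 and SRSF6 did not pass under some alternatives: for HNRNPA1L3 the adjusted p was 0.0625 to 0.0825 without venetoclax replicate 1, ERKi replicate 1 or 3, or combination replicate 1 or 3, and for HNRNPK it was 0.0504 without combination replicate 3. Without the filter on low counts the adjusted p was 0.0676 for HNRNPK and 0.249 for SRSF6. With library totals HNRNPK had 0.06 (adjusted p 0.331) and HNRNPA1L3 0.19 (0.142).

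Pseudogene rows, left out by the rule that chose the genes, also held called differences. With ERKi against DMSO most called rows were lower, as were their parent genes. Among them were HNRNPA3P10 (-2.08), HNRNPA3P6 (-1.76), HNRNPA3P3 (-1.64), HNRNPA3P5 (-1.18), HNRNPA1P77 (-1.12), HNRNPLP2 (-0.78) and HNRNPKP4 (-0.48). The rows given next were the exceptions that were higher than DMSO in at least 1 comparison, opposite to their parent gene. HNRNPA1P49 was higher with ERKi by a log2 fold change of 1.46 and with the combination by 1.53, at mean levels of 0.44 CPM with DMSO, 1.23 with ERKi and 1.29 with the combination. HNRNPRP3 was higher with ERKi by 0.94, at 0.74 and 1.43 CPM. HNRNPA1P10 was lower with ERKi (-0.54) and higher with the combination (0.48), at 18 CPM with DMSO, 12.4 with ERKi and 25.2 with the combination. HNRNPA1P7 likewise was lower with ERKi (-0.39) and higher with the combination (0.34), at 53.5, 40.7 and 67.6 CPM. How reads that matched several places were counted is not known here.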

How the results depend on the processing

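No called direction of any of the 32 genes turned under the alternatives run. The counts of members called were within 1.5 times the values above under each alternative other than leaving out a library, except for the small counts of members called lower in the combination against ERKi (3) and in the interaction (2). Without a filter on low counts these were 1 and 1, and with library totals in place of TMM factors they were 8 and 6. Of all genes tested, 3370 and 2401 of 29632 were lower without a filter. With library totals 5181 and 3765 of 15173 were lower. Leaving out each library in turn gave 3 to 4 members higher and 25 to 26 lower with ERKi against DMSO, 2 to 2 and 19 to 23 with the combination against DMSO, 2 to 2 and 20 to 24 against venetoclax, 20 to 22 and 2 to 3 against ERKi, 16 to 20 and 0 to 3 in the interaction, and 0 to 0 in both directions with venetoclax. Members called lower in the interaction were 0 without ERKi replicate 1 and 1 without venetoclax replicate 3 or ERKi replicate 3. The calls that held under all alternatives were 28 of 30 with ERKi, 21 of 24 with the combination against DMSO, 22 of 24 against venetoclax, 17 of 24 against ERKi and 16 of 20 in the interaction. The cause of the lost calls was not tested.

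No clear pairing of the libraries by replicate number was seen: libraries with the same number had correlations of their deviations from -0.074 to 0.094 (18 pairs), against -0.091 to 0.066 for different numbers. With 3 libraries per group these small values cannot exclude a weak pairing, and the labels do not state one. With the replicate number as a block, 4 members were higher and 26 lower with ERKi, 2 and 22 with the combination against DMSO and against venetoclax, 20 and 3 against ERKi, 18 and 2 in the interaction, and 0 with venetoclax. SRSF4, in the combination against ERKi, was the single call that changed (adjusted p 0.0509). The 3 libraries per group and the common biological coefficient of variation of 0.0727 limit the smallest change that can be called, and gene-level counts do not separate transcripts of a gene.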
